A study of Drosophila melanogaster with 2 samples.

Results

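Notch signalling passes a signal between touching cells. A ligand on one cell pulls on the Notch receptor of its neighbour, proteases release the intracellular part of the receptor, and this part enters the nucleus and works with the DNA-binding protein Suppressor of Hairless and the coactivator Mastermind on target genes. In the fly embryo the pathway is best known for limiting how many cells of the neurogenic ectoderm become neural precursors.

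The peaks described here lie at 10 core genes of this pathway, chosen by name: the receptor gene N, the ligand genes Dl and Ser, the processing genes kuz, fng and neur, the inhibitor genes numb and H, and the nuclear genes Su(H) and mam. They are 10 of 18277 annotated genes, of which 13968 are protein-coding. The assay was chromatin immunoprecipitation followed by sequencing (ChIP-seq), with an antibody to GFP, in flies carrying a transgene for CG17328, a zinc-finger protein, joined to eGFP. Both biological replicates were whole Drosophila melanogaster embryos of 0 to 24 h from this strain, so there was 1 group and no other genotype, treatment or time. Signal from all tissues and ages of the embryo is therefore pooled, the tagged protein comes from an inserted construct, and no control library was analysed here. A peak list measures no RNA, so the label of whole embryo could not be checked against marker genes. With no second group, every statement below is a description without a test.

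A peak was counted for a gene when its summit, the position of highest signal, lay in the gene or within 5 kb on either side. The main list was the series-level list that the authors call conservative, with 5802 peaks on the chromosome arms of the dm6 assembly, and 19 of these lay in the windows of the 10 genes. Peak signal is the value the authors gave each peak, in a column without a header. Series-level values are pooled over both replicates and have no error of their own, so the values of replicates 1 and 2 are set beside them. No label or header says whether the replicates share 1 signal scale, and the number of reads behind a peak is unknown. The authors' reproducibility measure is the irreproducible discovery rate (IDR), where a lower value means that a peak recurs more consistently, and every peak in the thresholded lists had an IDR of at most 0.01. An IDR of 1e-05 was the lowest value in the lists and is a cap, shared by all peaks that reached it. Peaks are numbered within each gene from 5′ to 3′, and distances are in the direction of transcription, with upstream negative.

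Of the 10 genes, 7 had at least 1 conservative peak, and Ser, Su(H) and H had none. The same held for 51.2% of all protein-coding genes. It held for 63.9% of the 4223 genes with windows between 13.8 and 99.3 kb, the range of the 10. This set of like window length was matched to that range and not to each gene's own window. The share among the Notch genes is thus close to that of other genes in this range. Each of the 7 genes had a peak within 500 bp of 1 of its own start sites. Among all protein-coding genes 20.1% had such a start-site peak, among those of like window length 29.9%, and among those with any peak in the window 39.3%. The own list of replicate 1 held 12 peaks at 6 of the genes, where 39.8% of protein-coding genes had one. That of replicate 2 held 13 peaks at 6 genes, against 43.4%. Only Dl dropped out of both. The other series-level list held 22 peaks at the 7 genes, against 52.9%.

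**Figure D1:**
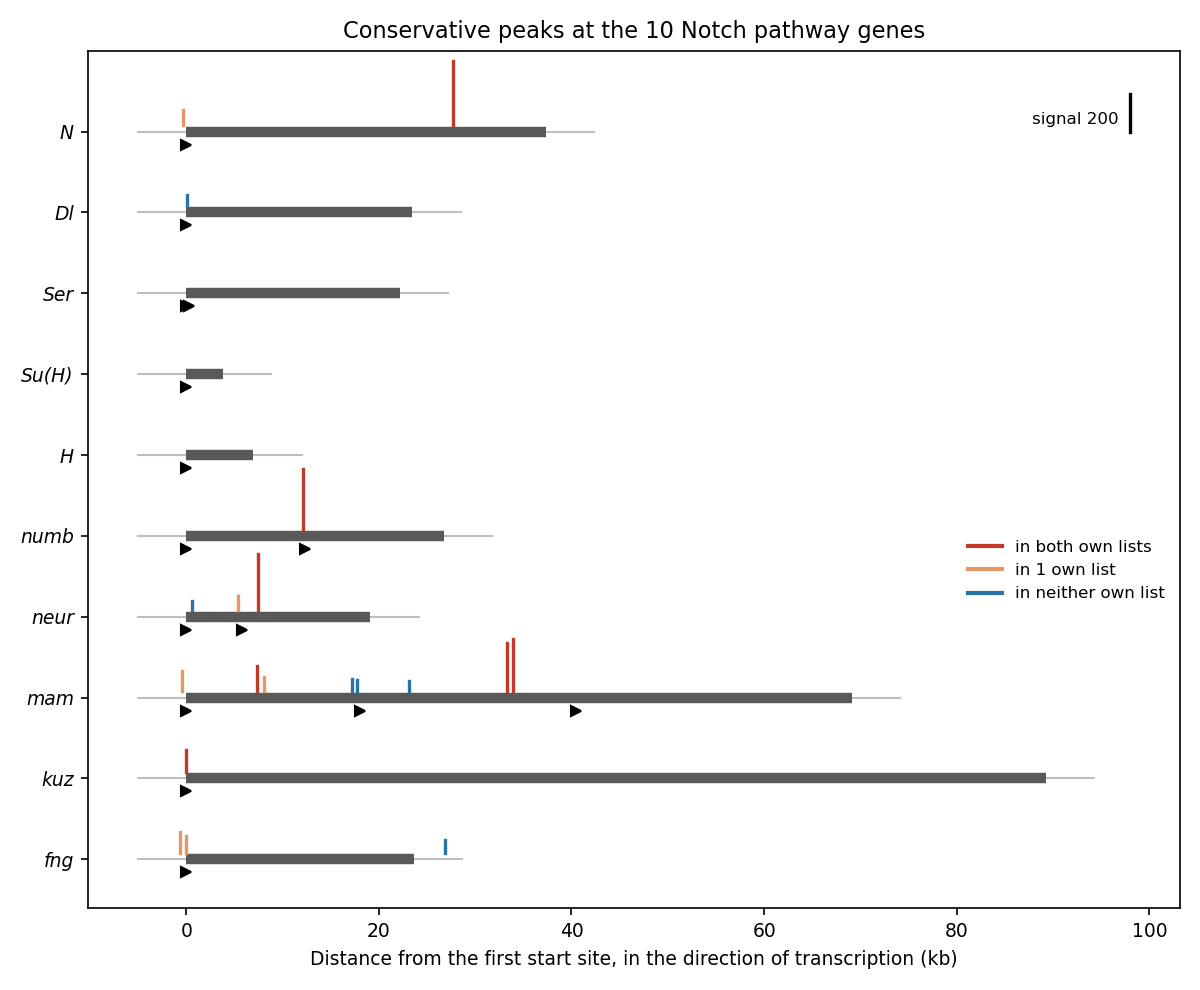
Each line is 1 of the 10 genes with 5 kb on either side, the thick bar is the gene, arrowheads are annotated start sites, and the horizontal axis is distance in kb from the first start site. Vertical strokes are the 19 conservative peaks with height proportional to pooled signal (scale bar at the top right) and colour showing in how many replicates' own lists the peak occurs; the tall strokes at N, numb, neur and mam are red and stand inside the genes, and Ser, Su(H) and H have none.

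Sequences are given for strong and weaker peaks, so that the letters can be read beside the values described further on. The first 3 are whole peaks of high signal that stand inside genes, of which numb-1 also lies at a start site of its gene. The last 2 are the stretches upstream of the start site within weaker peaks of kuz and fng. The kuz-1 summit lies just outside the printed stretch. All are from the plus strand of dm6, in the RefSeq copy of that assembly. Capitals mark the letters CTTAAA or their reverse complement TTTAAG, a word chosen after these sequences had been read.
N-2 (chrX:3162414-3162621): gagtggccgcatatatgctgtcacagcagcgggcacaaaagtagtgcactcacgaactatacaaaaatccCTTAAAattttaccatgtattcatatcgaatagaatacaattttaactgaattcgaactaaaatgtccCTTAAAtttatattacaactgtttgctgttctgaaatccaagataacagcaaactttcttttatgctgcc
numb-1 (chr2L:9449472-9449698): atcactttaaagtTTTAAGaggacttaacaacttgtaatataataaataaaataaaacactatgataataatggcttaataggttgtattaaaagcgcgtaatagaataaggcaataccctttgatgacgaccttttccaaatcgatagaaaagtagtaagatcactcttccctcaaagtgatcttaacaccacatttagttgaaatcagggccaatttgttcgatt
neur-3 (chr3R:9031919-9032085): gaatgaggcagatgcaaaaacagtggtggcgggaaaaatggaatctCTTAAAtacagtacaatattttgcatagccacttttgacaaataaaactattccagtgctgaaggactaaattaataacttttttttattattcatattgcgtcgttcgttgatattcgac
kuz-1 (chr2L:13550005-13550138): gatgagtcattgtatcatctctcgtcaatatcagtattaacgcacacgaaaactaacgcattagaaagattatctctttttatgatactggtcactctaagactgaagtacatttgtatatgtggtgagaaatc
fng-2 (chr3L:20949513-20949726): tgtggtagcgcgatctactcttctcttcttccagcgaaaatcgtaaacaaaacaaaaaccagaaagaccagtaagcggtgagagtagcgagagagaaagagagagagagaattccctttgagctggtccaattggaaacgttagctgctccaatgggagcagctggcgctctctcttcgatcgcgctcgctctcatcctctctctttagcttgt
The N-2 stretch holds 2 copies of the word, numb-1 and neur-3 hold 1 each, and the printed kuz-1 and fng-2 stretches hold none. These few chosen sequences do not show how strong and weaker peaks differ in general, and counts over all 19 summits are given further on. The copies in N-2 and neur-3 lie within 50 bp of the summit, and that in numb-1 lies farther from it. Over the whole printed stretch the G+C content was 35.1% for N-2, 30.8% for numb-1, 33.5% for neur-3, 34.3% for kuz-1 and 48.6% for fng-2, so fng-2 alone stands apart.

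The receptor gene N (FBgn0004647, X from 3134870 to 3172221, plus strand) had the peak of highest signal among the 19. This peak, N-2, had a pooled signal of 337.3, rank 370 among the 5807 peaks of the list, and measured 156.8 in replicate 1 and 186.6 in replicate 2. It was narrow, at 208 bp, and was in the own lists of both replicates with an IDR of 1e-05 in each. Its summit lay at +27662 bp from the N start site, in intron 5 of 8 in both annotated transcripts, and the nearest start site of any gene, CG18508, was 10608 bp away. Only 6.84% of protein-coding genes, and 9.14% of those of like window length, had a peak of as high a signal. The start site of N itself had a weaker peak, N-1 (X from 3134352 to 3134667), at -360 bp and within the 3′ UTR of the neighbouring gene kirre. Its pooled signal was 77.9, with 50.1 in replicate 1 and 26.8 in replicate 2. Replicate 1 alone called it, at an IDR of 0.000686 against 0.742 in replicate 2. In the replicates' own lists the promoter peak of the receptor gene thus stands in 1, and the intronic peak in both. The pooled IDR of N-1 was 0.00467.

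The ligand genes had little. Dl (annotated as Delta, FBgn0000463, 3R from 19302731 to 19326217, minus strand) had 1 peak, in the 5′ UTR at +121 bp (3R from 19325938 to 19326253). Its pooled signal was 55.9, rank 5214 of 5807. The replicates were close, at 32.0 and 32.8, and neither called the peak in its own list, with IDRs of 0.0343 and 0.0522 against 0.0028 for the pooled peak. A peak at least as high was present at 49.1% of protein-coding genes. Ser (FBgn0004197, 3R from 27172090 to 27194267, minus strand) had no peak past the threshold in any list. Among candidates that missed the threshold, the one at its start site had a pooled signal of 38.0 and an IDR of 0.162. That candidate measured 27.8 in replicate 1 and 11.6 in replicate 2, so it was higher in replicate 1. The strongest candidate in the Ser window (pooled signal 48.8, IDR 0.0217) lay beyond the end of the gene, at +1845 bp from the start site of spn-D.

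Among the genes that process receptor and ligands, kuz (FBgn0259984, 2L from 13550139 to 13639411, plus strand), which encodes the ADAM metalloprotease that cleaves the ligand-bound receptor, had the longest window and 1 peak. This peak (2L from 13550005 to 13550320) had its summit at +24 bp, in the 5′ UTR, with a pooled signal of 118.0. It measured 77.6 in replicate 1 and 40.4 in replicate 2, the lowest ratio of replicate 2 to replicate 1 among the 19, at 0.521. Both replicates called it, with IDRs of 8.4e-05 and 0.00981, the latter just inside the threshold. The remaining length of the gene, which runs to 89.3 kb, held no conservative peak. A further peak in the other series-level list (pooled signal 70.3) and in the own list of replicate 1 (44.2) lay at +78 and +41 bp from the start site of the neighbour B4. It missed the conservative list, with an IDR of 0.132 in the ranking behind that list.

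The glycosyltransferase gene fng (FBgn0011591, 3L from 20925891 to 20949512, minus strand), whose product modifies Notch and so biases its response to the ligands, had 3 peaks. The peak at its start site, fng-2 (3L from 20949411 to 20949726), had its summit at -57 bp and a pooled signal of 87.9, with 57.2 in replicate 1 and 30.6 in replicate 2. Its neighbour fng-1 (3L from 20950049 to 20950364) lay 638 bp farther upstream, at -695 bp, with a pooled signal of 109.3, 38.0 in replicate 1 and 63.5 in replicate 2. The replicates thus ranked the adjacent peaks in opposite order, and each called only the one that was higher in its data: replicate 1 called fng-2 and replicate 2 called fng-1. The fng-1 summit was nearer to the start site of lncRNA:CR45243, 576 bp away, than to that of fng. The third peak, fng-3 (3L from 20922438 to 20922753), lay past the end of the gene, at -847 bp from the start site of lncRNA:CR43929, at a pooled signal of 65.6 with 31.7 and 33.4 in the replicates, neither of which called it.

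The ubiquitin ligase gene neur (FBgn0002932, 3R from 9020348 to 9039471, minus strand), whose product drives the endocytosis of the ligand Delta in the signalling cell, also had 3 peaks, a number reached by 10.4% of protein-coding genes and by 19.7% of those of like window length. The strongest, neur-3, had a pooled signal of 297.6, rank 467, with 134.9 in replicate 1 and 166.1 in replicate 2. It lay in intron 1 of 2 in all 5 transcripts, at +1730 bp from the downstream of the 2 start sites, spanned 167 bp and was called in both replicates at an IDR of 1e-05. The peak neur-2 (3R from 9033956 to 9034271) lay at -383 bp from the same start site with a pooled signal of 75.1, 36.2 in replicate 1 and 51.6 in replicate 2, and only replicate 2 called it. Replicate 1 had a called peak closer to that start site, at -25 bp with a signal of 40.8, which overlapped no conservative peak. The peak neur-1 (3R from 9038691 to 9039006) had the lowest signal of the 19, with 50 pooled, 33.7 in replicate 1 and 31.8 in replicate 2, and neither replicate called it. Its summit lay at +89 bp in the 5′ UTR of the neighbour hyx and 622 bp into neur, so it does not count as a start-site peak of neur.

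The inhibitor gene numb (FBgn0002973, 2L from 9437469 to 9464184, plus strand) encodes an endocytic adaptor that is handed to 1 daughter of an asymmetric division and lowers Notch activity there. Its single peak measured 119.1 in replicate 1 and 207.7 in replicate 2, a ratio of 1.74, with a pooled signal of 318.1 at rank 408, and both replicates called it. The summit lay at -246 bp from the second of its start sites and at +12115 bp from the first, within intron 2 of 3 of 1 of the 3 transcripts. It was the one start-site peak of the 10 genes with a signal above 250. H (FBgn0001169, 3R from 20621938 to 20628915, plus strand), the gene of the corepressor adaptor Hairless that binds Suppressor of Hairless, had no peak. A candidate at -23 bp from its start site had a pooled signal of 52.9, and its IDR of 0.0256 missed the threshold of 0.01. Replicate 2 had a candidate of 30.7 at +1 bp (IDR 0.0379) and replicate 1 one of 20.7 near the start site (IDR 0.651), so H came closest in replicate 2. The pooled signal at H is above that of neur-1 and close to that of Dl-1, which did pass.

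Su(H) (FBgn0004837, 2L from 15039488 to 15043334, plus strand), the gene of the DNA-binding protein of the pathway, had the shortest window and no peak. Its best candidate lay at -51 bp, with a pooled signal of 35.2 and an IDR of 0.668. In replicate 2 this candidate measured 29.9 (IDR 0.0962), and replicate 1 had no candidate within 500 bp of the start site. Of the 3 genes without a peak, Su(H) thus had the weakest pooled candidate.

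The coactivator gene mam (FBgn0002643, 2R from 13991203 to 14060356, plus strand) had 8 peaks, the most of the 10 genes. At least as many were found at 61 protein-coding genes, mam included, 0.437% of all and 1.02% of those of like window length. Windows of like length run from 13.8 to 99.3 kb, so that set includes genes with windows far shorter than the 79.2 kb of mam. Per 10 kb of window mam had 1.01 peaks, next to 1.03 at neur and 0.892 at fng. The highest were mam-8 and mam-7, with summits 605 bp apart in an intron ahead of the third start site. The signal of mam-8 was 274.7 pooled, 98.1 in replicate 1 and 174.9 in replicate 2, and that of mam-7 was 255.2 pooled, 106.3 in replicate 1 and 139.2 in replicate 2. Both replicates called both peaks, and at 143 and 104 bp they were the narrowest of the 19. Their summits lay at -6507 and -7112 bp from the third mam start site, with that of CG18371 nearer.

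Farther 5′ in mam, mam-2 lay at +7326 bp from the first start site with a pooled signal of 133.7, and it was called in both replicates, at 59.6 and 76.6. Its neighbour mam-3, 796 bp away, had 72.7 pooled, 41.2 in replicate 1 and 31.7 in replicate 2, and was called in replicate 1 alone. The peak mam-1, at -425 bp from the first start site, differed most between replicates, with 31.6 in replicate 1 and 81.3 in replicate 2, the highest ratio of the 19 at 2.58, and 105.8 pooled. It was called in replicate 2 alone, and its summit was nearer to a start site of the neighbour RN-tre, at -71 bp, than to that of mam. The peak mam-4, with a pooled signal of 61.2, 33.3 in replicate 1 and 26.1 in replicate 2, was the only one of the 19 missing from the other series-level list. The remaining peaks, mam-5 and mam-6, had pooled signals of 59.2 and 54.9 and replicate values between 26.1 and 43.6. Neither replicate called mam-4, mam-5 or mam-6, so of the 8 mam peaks 3 stood in both own lists, 2 in 1 of them and 3 in neither. The start-site count of mam rests on mam-1, at the first start site, and mam-5, at -286 bp from the second.

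Signal differed widely among the 19 peaks, from 50 to 337.3 with a median of 87.9, against a median of 94.5 over the conservative list. A signal of 250, a limit set after the values had been seen, separated 5 peaks from the other 14, with no peak between 133.7 and 255.2. The 5 strong peaks (N-2, numb-1, neur-3, mam-7 and mam-8) came from 4 genes, were all called in both replicates, and were the only ones narrower than 316 bp, the commonest width in the list. In the whole list 642 of the 5802 peaks reached 250, beside 5 of the 19 here. Of those 642 peaks, 99.5% were called in both replicates and 98% were narrower than 316 bp, so these features go with high signal everywhere. Of the 14 weaker peaks 2 (14.3%), mam-2 and kuz-1, stood in both own lists, against 43.6% of the weaker peaks of the whole list. These sets are unlike in signal, with medians of 73.9 and 86.8 and highest values of 133.7 and 250. The shares were not compared at equal signal. Counting all 19, 7 were in both own lists (36.8%) and 6 in neither (31.6%), where the whole list had 49.8% in both and 24.9% in neither. The other 6 were in 1 own list, 3 from each replicate.

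**Figure D2:**
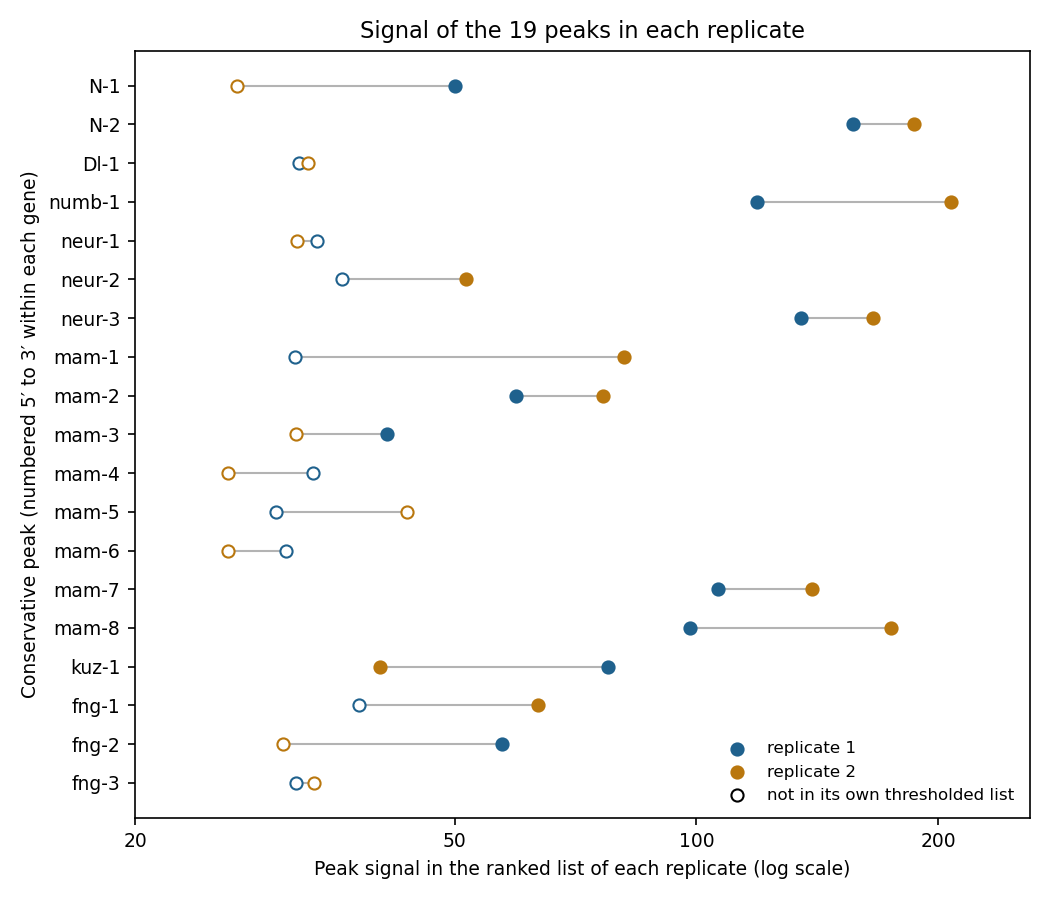
Rows are the 19 conservative peaks, the horizontal log axis is the peak signal in the ranked list of replicate 1 (blue) and replicate 2 (ochre), and open circles are values outside that replicate's own thresholded list. The 5 peaks at the right are filled in both colours, and in 12 of 19 the replicate 2 value is the higher one.

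The replicates' values at these peaks had the same median ratio as those of the whole list. The ratio of replicate 2 to replicate 1 had a median of 1.19 over the 19 peaks and 1.19 over the 5746 conservative peaks with a candidate in both. It ran from 0.521 to 2.58 at the Notch genes, while in the whole list percentiles 5 and 95 were 0.698 and 1.97. Extremes of 19 ratios are set beside percentiles here, so a wider spread was not shown. Replicate 2 was higher at 12 of the 19 and replicate 1 at 7, and over the whole list replicate 2 was higher at 71%. Outside that span lay 4 of the 19 ratios (21.1%), against 10% of the whole list by construction. They belong to N-1, kuz-1 and fng-2, which were high in replicate 1, and to mam-1, which was high in replicate 2. All 4 had summits within 500 bp of an own start site, a place shared by 8 of the 19 peaks. The mam-1 summit was nearer to RN-tre. This shared place was seen after the ratios, was not tested, and has no whole-list share beside it.

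The start-site peaks had a lower median signal than the other peaks at these genes. The 8 peaks within 500 bp of an own start site had signals from 55.9 to 318.1 with a median of 82.9, and 2 of them, numb-1 and kuz-1, were called in both replicates (25%). The other 11 had signals from 50 to 337.3 with a median of 109.3, and 5 were called in both (45.5%). The whole list was split by start sites of any gene, a rule that moves neur-1 into the first class. Split that way, the 9 start-site peaks had a median of 77.9 with 22.2% called in both, and the other 10 a median of 121.5 with 50%. In the whole list, 2499 peaks at start sites had a median of 98.4 with 53.2% called in both, and 3303 others a median of 92.3 with 47.3%, so the order was the opposite. With 9 and 10 peaks these shares change by many percentage points when 1 peak moves, and the difference was not tested.

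Peak number also has to be read against gene length. The median window of the 10 genes was 33.6 kb, against 12.2 kb for all protein-coding genes. The median was 0.285 peaks per 10 kb of window for the Notch genes, 0.27 for all protein-coding genes and 0.527 for those of like window length. Taken as total peaks over total window length, the 10 genes had 0.451 per 10 kb, all protein-coding genes 0.573 and those of like length 0.585. Both measures put the 10 genes at or under other long genes, with kuz at 0.101 and neur at 1.03 as the ends among those with a peak.

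**Figure D3:**
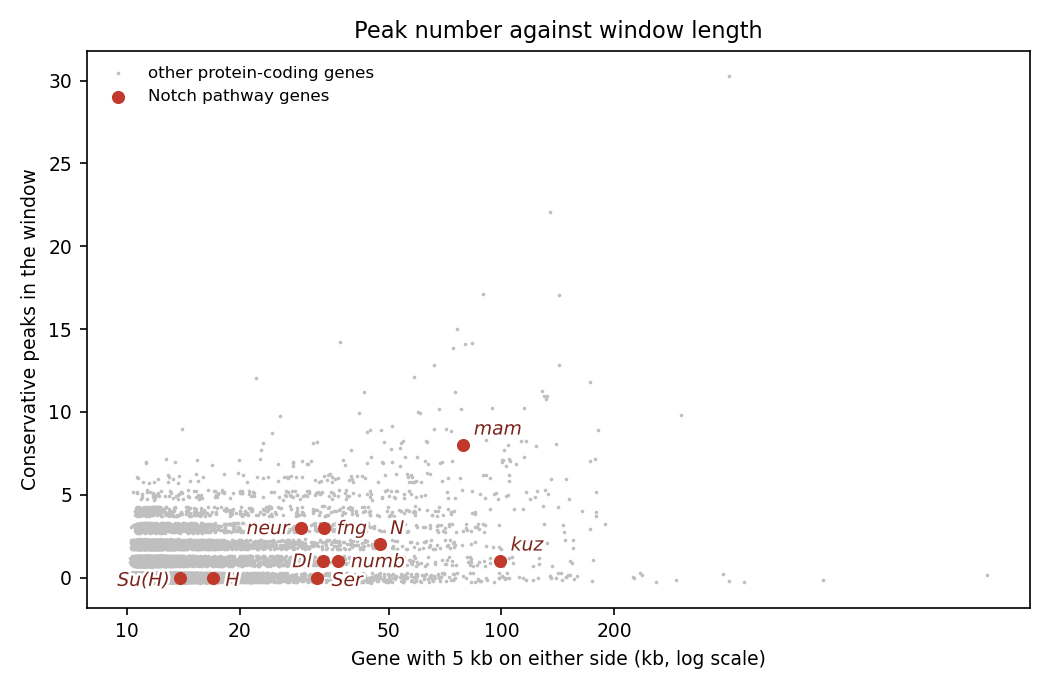
Each point is a protein-coding gene, placed by the length of its window in kb on a log axis and by the number of conservative peaks in it, with grey points shifted slightly up or down for display. The 10 Notch genes are red: mam with 8 peaks lies above most genes of its length, and kuz, with the longest window of the 10, has 1.

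Base composition at the summits resembled that of the whole list. Within 50 bp of the summit the G+C content averaged 35.7% (SD 9.88, n = 19 peaks), and 35.8% (SD 10.9) over the 5802 conservative peaks. Flanks of equal length centred 300 bp to either side averaged 43.9% and 43.5%. The summit was poorer in G+C than its flanks at 15 of the 19 and at 70.9% of the whole list. The 5 strong peaks averaged 28.5%, which was 20.1 points below their flanks (a difference of -20.1), and none exceeded 33.7%. The 14 weaker peaks averaged 38.3%, with a mean difference of -3.85 points, and included the 4 summits richer than their flanks: Dl-1 at 46.5%, kuz-1 at 44.6%, mam-4 at 52.5% and mam-6 at 59.4%. The same contrast is present in the whole list, at 30.7% for peaks of 250 or more and 36.4% for the rest. The contrast concerns the 50 bp on each side of the summit. The printed kuz-1 stretch is about as poor in G+C as those of the strong peaks, but it leaves out the summit. The flanks of kuz-1 averaged 31.2% against 44.6% at its summit, so that stretch does not bear on the contrast.

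**Figure D4:**
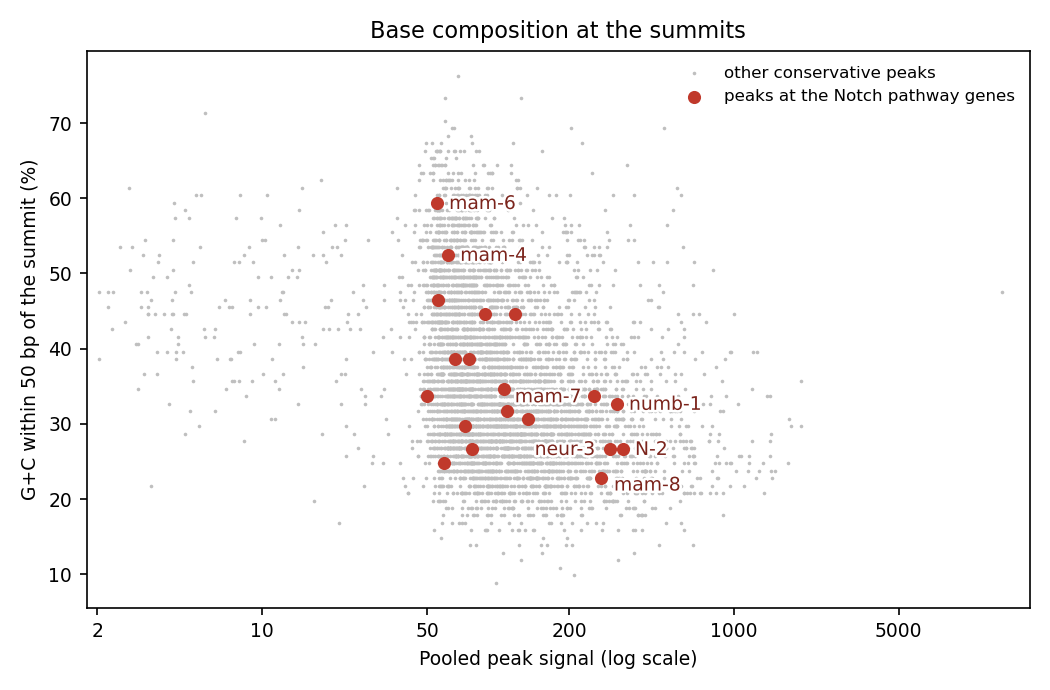
G+C content in % within 50 bp of the summit against pooled peak signal on a log axis, for the 19 peaks at Notch genes (red) and the other conservative peaks (grey). The 5 labelled peaks with a signal of 250 or more lie between 22.8 and 33.7%, and the weaker ones between 24.8 and 59.4%.

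Short words were searched on both strands within 50 bp of each summit, and a match is only a description. CTTAAA was present at 5 of 19 summits (26.3%), namely N-1, N-2, neur-3, mam-1 and mam-3. The word was chosen after the sequences of N-2 and neur-3 had been read, so this share is partly set by that choice. Of the 5 strong peaks, numb-1, mam-7 and mam-8 did not hold it there. It was present at 14.1% of all conservative summits, at 22.3% of those with a signal of 250 or more and in 6.95% of flanks. TATTTTAA, a word known from earlier results of these data, was present at 1 of 19 summits, mam-5, against 5.1% of all conservative summits. Where a G follows it, TATTTTAA overlaps TTTAAG, so these counts are not independent. GAGAG, the core of the site of GAGA factor, was present at 4 summits (neur-2, mam-4, fng-1 and fng-2), which is 21.1% against 10.5% of all conservative summits and 15% of flanks. In the printed fng-2 stretch it is part of long alternating runs of G and A. The Zelda word CAGGTA was present at 1 summit, mam-4, against 1.83% of all. The DRE word TATCGATA was at none, against 1.15%. The sites searched for Suppressor of Hairless were CGTGGGAA or CGTGAGAA, with TGTGGGAA or TGTGAGAA, and none was present at the 19 summits, against 0.81% of all.

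The other peaks near these genes were few and sat mostly at neighbours. The other series-level list added 4 peaks to the windows, of which the one at fng (3L from 20950700 to 20951015, signal 70.8) lay at -75 bp from the start site of lncRNA:CR45243, and those at kuz and neur were nearest to B4 and hyx. Their IDRs in the ranking behind the conservative list were from 0.0166 to 0.132. Replicate 2 alone called a peak at the third start site of mam, at -12 bp with a signal of 38.0. All peaks in these windows that passed the threshold in either series-level ranking were in 1 or both of the thresholded series-level lists.

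Other genes of the pathway were counted in the same way, but were not compared with genes of like window length. Among the pathway's target genes in the E(spl) complex and Bearded family, 13 of the 15 matched had a conservative peak in the window. At an own start site 7 had one (86.7% and 46.7%, against 51.2% and 20.1% of all protein-coding genes). These genes are clustered, so they share peaks, and only 18 distinct peaks were involved. The highest among them, at 591.5 (244.1 and 343.5 in replicates 1 and 2), was in the windows of E(spl)m7-HLH and E(spl)m8-HLH and lay at -136 bp from the start site of gro, the gene of the corepressor Groucho. A peak of 308.0 at +384 bp from CG43116 lay in the windows of E(spl)mgamma-HLH and E(spl)mdelta-HLH. Of 21 genes for receptor and ligand processing and trafficking, 16 had a peak in the window and 9 at an own start site (76.2% and 42.9%, beside the same 51.2% and 20.1%). The highest signals in this list were 872.5 for Kul, 717.2 for lgd and 501.8 for O-fut1, but the Kul and O-fut1 peaks lay at the start sites of the neighbours CG7601 and CG13018, and only that of lgd, annotated as l(2)gd1, was at its own, at -114 bp. Of 13 nuclear partners and other targets, 10 had a peak in the window (76.9%, against 51.2% of all protein-coding genes). At an own start site 3 had one (23.1%), near the 20.1% of all protein-coding genes. The list was led by gro at 591.5, the histone acetyltransferase gene nej at 415.3 and phyl at 188.3. The nej peak lay at -427 bp from the start site of lncRNA:CR42657.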

How the data were processed

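Both samples are biological replicates of 1 group, and the deposited data are peak lists on dm6, per the labels. Each replicate has a ranked and a thresholded list, and the series has a pair of each, 1 of them called conservative. The deposited signal is the value, without a stated unit, that the authors gave each peak. Its IDR was deposited by the authors as −log10 and is printed here converted back to a rate, with the column layout inferred from the values. For aligner and peak caller, names and versions were not given in the sources used here. A control alignment was among the inputs, per the file listings. Read depth is unknown, so no intervals are given. Another 16 columns of per-sample values in the series-level ranked lists were not used.

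Summits were placed on Ensembl release 115 gene models of assembly BDGP6 (18277 genes on 7 arms, transposable elements left out) with Python 3.11.15, pandas 2.3.3 and numpy 2.4.6, and figures drawn with matplotlib 3.10.9. A conservative peak was in a replicate's own list when a peak there overlapped it by at least 1 bp. The computation was checked on simulated peaks. No test between groups was possible. The 10 genes, the 3 further lists, the words and the limit of 250 were chosen with earlier results of these data known. All 10 genes and every conservative peak are named, with the 6 highest of mam in full and the 3 genes of highest signal in each further list. Bob, BobB and BobC could not be matched. Alternatives were each replicate's own list, the other series-level list, peaks at or above the median signal, and other windows and overlap rules.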

Additional observations from a re-analysis of the deposited data

How the results depend on the processing

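Of 56 alternative values for 8 quantities, 36 stayed close to those reported and 20 moved by more than 1.5 times or, for G+C content, by more than the spread between the replicates' own lists (SD 1.14). The number of genes with a peak stayed between 6 and 8, and 7 peaks were found in both replicates under all 4 alternatives tried. With either replicate left out, the number of peaks (19) fell to between 12 and 13, genes with an own start-site peak (7) to between 4 and 5, and the median per 10 kb (0.285) to between 0.156 and 0.237. Peaks at another gene's start site (2) were then between 1 and 2, mean G+C (35.7%) between 33.1 and 34.7%, and TATTTTAA was at 0 summits. With only peaks at or above the median signal these became 9 peaks, 3 genes, 0.156 per 10 kb, 1 peak at another start site, 31.6% G+C and 0 summits with TATTTTAA. Assigning peaks to the nearest start site gave 11 peaks, a start-site window of 250 bp gave 4 genes, and genes without flanks gave 0.19 per 10 kb. Peaks at another gene's start site numbered 5 in the other series-level list and 5 with a window of 1000 bp. Mean G+C was 38.1% in the other series-level list and 37.7% within 100 bp. In each case the cause was not tested. Both series-level lists together, chosen after seeing the data, gave 23 peaks at 7 genes. No paired analysis was possible because there was 1 group. The start-site counts include weak peaks near the threshold. A control alignment was among the authors' inputs, but no read counts or control library were analysed here. The lists alone do not show how much of any peak comes from the tagged protein.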
